A study of Mus musculus with 8 samples.

Results

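Low oxygen is sensed in mammalian cells through hypoxia-inducible factor (HIF). Its alpha subunit is made continuously and, when oxygen is present, is hydroxylated by the Egln prolyl hydroxylases, bound by Vhl and degraded. Under hypoxia the subunit is spared, pairs with Arnt and switches on genes for blood vessel growth, glycolysis, pH control, mitophagy and collagen processing. Control of Hif1a therefore lies largely at the protein, which RNA-seq does not measure, while its target transcripts are the usual readout.

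The 10 genes described here were chosen by symbol as hypoxia-response genes: Hif1a, Car9, Vegfa, Bnip3, Egln3, Ankrd37, Adm, Ndrg1, P4ha1 and P4ha2. All 10 were among the 23420 gene symbols counted, and all 10 passed the filter on low counts, as did 13316 genes in all. The data are RNA-seq read counts from mouse embryonic fibroblasts on a C57BL6/N background that carried 2 oncogenes, adenoviral E1A and the activated Ras form HRasV12, in both groups. Wild-type cells gave 4 libraries, and cells labelled Neat1-/- (Neat1 null), which lack the long noncoding RNA of nuclear paraspeckles, gave 4. The comparison asks how loss of Neat1 relates to expression in these transformed cells. The labels mention no low-oxygen treatment and do not say how the Neat1 allele was disrupted. They also leave out whether each library is a separate culture or embryo, so p-values measure only the spread between these libraries, which may be technical. In such bulk RNA, fewer cells expressing a gene and less of its RNA per cell cannot be told apart.

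Counts in genes ranged from 31651625 to 37069334 in wild-type and from 19651035 to 38950207 in Neat1 null libraries, the lowest being Neat1 null library 1. Neat1 (chromosome 19, 5824708 to 5845478) had 138 to 1320 CPM (read counts relative to a TMM-scaled library total) in the wild-type group and 6.12 to 11.3 CPM in the Neat1 null group, lower in every null library than in any wild-type one. Neat1 null libraries 1 and 3 stood apart: ribosomal protein genes took 20.8% and 13.2% of their counts against 5.35% to 8.36% in the other 6, and Rn45s, a ribosomal RNA precursor, took 5.23% in library 1 against at most 0.939% elsewhere. On the first principal component they lay at 103 and 91.1, with wild-type libraries 3 and 4 as far out at the other end (-89.0 and -92.1) and the other 4 between -41.3 and 28.4. The slope of log2 CPM (centred on each gene's mean) on log2 exon length was 0.135 to 0.245 in the wild-type and -0.477 to 0.00725 in the Neat1 null group, with no overlap, so gene length moved with genotype. By Xist and Y-linked genes the wild-type libraries and Neat1 null library 3 were female and the other Neat1 null libraries male, so sex and genotype largely cannot be told apart. With library sex as a covariate, the genotype difference is therefore that of Neat1 null library 3 alone from the wild-type libraries. Fibroblast markers (8 of 8 tested, 0 higher and 1, Pdgfra, lower in Neat1 null) summed to 1826 to 3399 CPM in the wild-type and 2587 to 4031 CPM in the Neat1 null group, led by Vim and Fn1. Among them Col1a1, Col3a1 and Thy1 were low throughout, with at most 12.4, 7.82 and 16 CPM, Col1a2 reached 77.1 CPM in wild-type library 3 and at most 8.38 CPM elsewhere, Pdgfrb had 18.2 to 40.9 CPM, and Pdgfra had 40.9 to 148 CPM in the wild-type against 3.92 to 10.9 CPM in the Neat1 null group. Epithelial markers (4 of 6 tested, none called; Krt14 at 0) summed to 194 to 633 CPM and to 249 to 3181 CPM, the upper end being Krt18 in Neat1 null library 1. Endothelial markers (1 of 6 tested, not called) summed to 0.862 to 40.9 CPM and to 0.269 to 0.879 CPM, the upper end being Emcn in wild-type library 3. Macrophage markers (2 of 6 tested, 1 lower; Ptprc at 0) summed to 15 to 108 CPM and to 13.1 to 32.3 CPM. Muscle markers (2 of 5 tested, 1, Tnnt1, higher; Myod1 at 0) summed to 3.29 to 15.4 CPM and to 3.37 to 29.5 CPM. Neural markers (4 of 5 tested, 1, Map2, lower) summed to 25.7 to 53.9 CPM and to 7.46 to 26.6 CPM. Erythroid markers (1 of 4 tested, not called; Hba-a1 at 0) stayed at or below 1.53 CPM in sum. The covariate fit cannot test the part of sex in the results apart from Neat1 null library 3. The part of ribosomal share or these markers was tested only where a value is given below.

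HIF binds a short core motif, ACGTG or GCGTG, near many of its targets. RefSeq promoter entries (GRCm38.p6) were at hand for 9 of the 10 genes, all but Ndrg1. The 250 bases before the first listed start held the motif on either strand in 8 of the 9, the exception being Vegfa. Vegfa has a second listed start, and the 250 bases before that one held 1 ACGTG and 1 GCGTG. Over all 32851 promoter entries, 38.6% of windows of that length held it, 16.6% ACGTG and 28.2% GCGTG. Overlapping matches on both strands were counted separately. The stretches below show, for 7 genes, the match nearest the start whose whole stretch lies outside annotated exons. That match is in capitals (CACGT and CACGC are the motif read on the other strand), and any further match stays in lower case. They are shown to let the shared core and its differing surroundings be read beside the values of each gene.
Hif1a: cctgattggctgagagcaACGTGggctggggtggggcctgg
Bnip3: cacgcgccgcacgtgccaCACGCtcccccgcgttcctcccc
Egln3: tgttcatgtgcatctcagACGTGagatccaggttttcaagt
Ankrd37: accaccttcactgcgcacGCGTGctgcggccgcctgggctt
Adm: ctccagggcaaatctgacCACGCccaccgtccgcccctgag
P4ha1: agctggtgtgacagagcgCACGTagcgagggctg
P4ha2: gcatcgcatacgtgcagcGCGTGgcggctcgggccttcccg
The capitals begin 70 bases before the start in Hif1a (chr12:73907779-73907819, plus strand), 99 in Bnip3 (chr7:138909583-138909623, minus), 229 in Egln3 (chr12:54204081-54204121, minus) and 152 in Ankrd37 (chr8:45999980-46000020, minus). They begin 54 bases before it in Adm (chr7:110627585-110627625, plus), 16 in P4ha1 (chr10:59323262-59323295, plus) and 69 in P4ha2 (chr11:54100837-54100877, plus). A match of letters is not a measured binding site.

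None of the 10 genes differed between genotypes past the threshold (adjusted p under 0.05, edgeR's quasi-likelihood test over all genes), and the 2 groups of libraries overlapped for all 10. Over all genes tested 17.7% passed, 9.97% being higher with Neat1 lost (1328 genes) and 7.72% lower (1028 genes). With upper-quartile scaling that split was 1036 higher and 1428 lower. Groups did not overlap for 11.7% of all genes with the Neat1 null group above and for 11.0% with it below. At an unadjusted p under 0.05 there was 1, Ankrd37, against 36.0% of all genes, and DESeq2 called 1, again Ankrd37, where that tool called 25.8% of all genes. The median log2 fold change (Neat1 null minus wild-type) of the 10 was -0.15, with 6 of 10 below 0, against -0.06 over all genes tested. These counts do not show equal levels: the 95% confidence interval lay within a 2-fold change in either direction for 2 genes (P4ha1 and P4ha2) and within a 4-fold change for 8, all but Car9 and Ankrd37. In simulated counts with the spread of these libraries, 4.08% of genes changed 2-fold and 72% of genes changed 4-fold were recovered. That simulation gave 137 calls where the real fit gave 2356, so passing its adjusted threshold took a smaller unadjusted p. These shares are therefore not the recovery of the real fit.

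**Figure D1:**
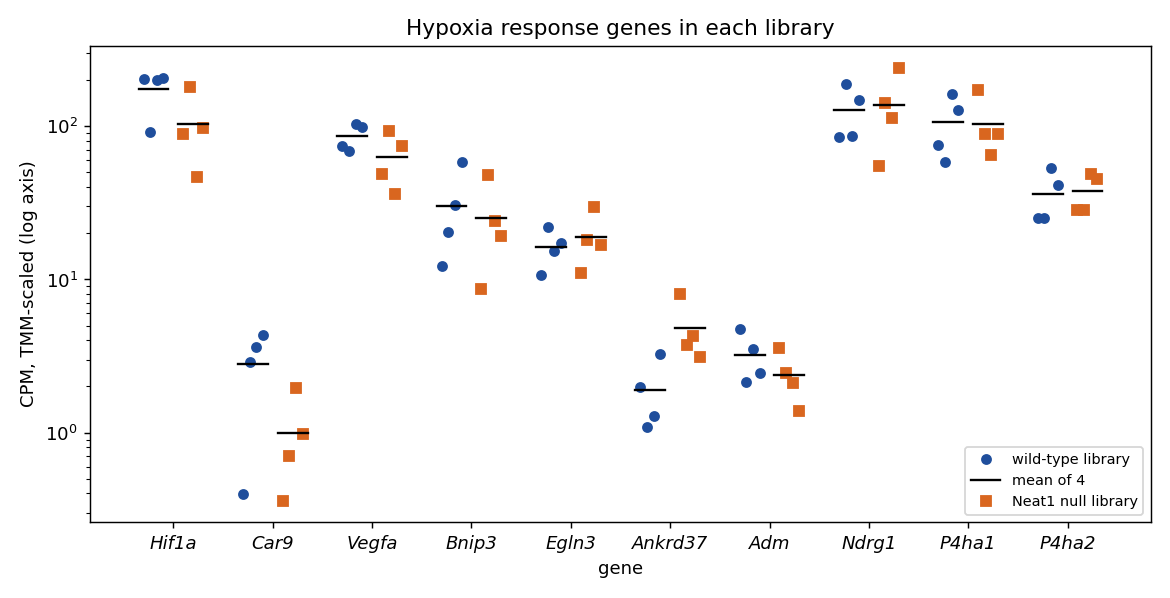
CPM (log axis) of the 10 hypoxia response genes in each of 4 wild-type libraries (circles) and 4 Neat1 null libraries (squares), with the mean of each group as a bar. The groups overlap for every gene, and Car9 and Ankrd37 show the widest gaps between means with all 8 libraries used.

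Hif1a (GRCm38 chromosome 12, plus strand, 73901375 to 73947530), the oxygen-regulated subunit itself, had 203, 91.5, 201 and 207 CPM in wild-type libraries 1 to 4. The Neat1 null libraries 1 to 4 had 89.6, 181, 47.1 and 96.9 CPM. Thus 3 wild-type libraries lay near 200 and 3 Neat1 null libraries under 100, and replicate 2 of each group lay on the other group's side. Its log2 fold change was -0.76 (SE 0.43, 95% interval -1.67 to 0.15, adjusted p = 0.213, edgeR), from 176 ± 56.1 to 104 ± 56.2 CPM (mean ± SD, n = 4 each). Values moved with the libraries used: -0.34 without Neat1 null libraries 1 and 3 (adjusted p = 0.610). With library sex as a covariate, where Neat1 null library 3 alone stands for the null group, the value was -1.90. Of its exon bases, 2.51% are shared with the gene model Gm49321 on the same strand, so a part of its counts is uncertain.

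Egln3, a prolyl hydroxylase that marks HIF for degradation and is itself induced by HIF (chromosome 12, 54178981 to 54203860), had 10.7, 22.1, 15.4 and 17.3 CPM in wild-type libraries 1 to 4. In Neat1 null libraries it had 11.0, 18, 29.9 and 16.8 CPM. The lowest values of the 2 groups were nearly equal, and Neat1 null library 3, which had the least Hif1a, had the most Egln3. On the log2 scale the fold change was 0.21 (SE 0.39, 95% interval -0.61 to 1.03), and it was -0.086 without Neat1 null library 3. With library sex as a covariate, so on Neat1 null library 3 alone, it was 0.87.

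Among the secreted factors, Vegfa, the main driver of new vessel growth (chromosome 17, 46016993 to 46032369), had 74.4, 69.1, 103 and 99.0 CPM in wild-type libraries 1 to 4. Its values in Neat1 null libraries 1 to 4 were 48.8, 92.9, 36.2 and 74.5 CPM. Neat1 null libraries 1 and 3 were the 2 lowest of all 8, and Neat1 null libraries 2 and 4 lay inside the wild-type range. The difference was -0.45 on the log2 scale (SE 0.36, 95% interval -1.22 to 0.32, adjusted p = 0.380, edgeR), and -0.055 without Neat1 null libraries 1 and 3. With library sex as a covariate, so on Neat1 null library 3 alone, it was -1.25.

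Adm, the vasodilator peptide adrenomedullin (chromosome 7, 110627661 to 110629820), was counted with 40 to 178 reads per library. Wild-type libraries 1 to 4 had 4.72, 2.14, 3.52 and 2.46 CPM and Neat1 null libraries 3.59, 2.43, 2.12 and 1.38 CPM. Only wild-type library 1 lay above, and Neat1 null libraries 3 and 4 below, the range of the other group. This gave a log2 fold change of -0.44 (SE 0.51, 95% interval -1.52 to 0.64), -0.18 without wild-type library 1 and -1.12 after correction for gene length and GC content (adjusted p = 0.111).

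Car9, a membrane carbonic anhydrase with a part in pH control of hypoxic cells (chromosome 4, 43506966 to 43513729), rested on 4 to 177 reads per library. It had 0.398, 2.89, 3.61 and 4.31 CPM in wild-type libraries 1 to 4 against 0.359, 0.704, 1.94 and 0.973 CPM in Neat1 null libraries. Wild-type libraries 2 to 4 lay above every Neat1 null library, and wild-type library 1 lay among the lowest. Its log2 fold change was -1.47 (SE 0.70, 95% interval -2.96 to 0.03, adjusted p = 0.146, edgeR). Without wild-type library 1, Car9 passed the threshold with a log2 fold change of -1.81 (adjusted p = 0.0436), in a fit that called 20.9% of all genes. With library sex as a covariate, which compares Neat1 null library 3 alone with the wild-type group, the value was -0.53. After the length and GC correction it was -2.09 (adjusted p = 0.0658).

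Bnip3, a mitochondrial outer membrane protein that directs mitophagy (chromosome 7, 138890836 to 138909519), ranged 4.79-fold among wild-type and 5.58-fold among Neat1 null libraries. Wild-type libraries 1 to 4 had 12.2, 20.3, 30.7 and 58.4 CPM, and Neat1 null libraries 8.62, 48.1, 24.2 and 19.4 CPM. The spread within each group was wider than the gap between the means of 30.4 and 25.1 CPM. For Bnip3 the log2 fold change was -0.27 (SE 0.52, 95% interval -1.39 to 0.84), and 0.25 without wild-type library 4. Annotated antisense exons of Gm45507 cover 22.2% of its exon bases, and the strand setting of the counting was not given. Genes on the other strand also cover 9.29% of the exon bases of Car9 and 5.60% of those of Hif1a. For Ndrg1 they cover 6.35% (Gm17035) and 2.08% (Gm2895).

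Ndrg1, a stress-responsive cytoplasmic protein (chromosome 15, 66929318 to 66969640), had 85.2, 191, 85.9 and 148 CPM in wild-type libraries 1 to 4. The Neat1 null libraries had 55.2, 143, 114 and 242 CPM and so held both the lowest and the highest of the 8 values. The log2 fold change was 0.12 (SE 0.44, 95% interval -0.82 to 1.07), and it was below 0 with upper-quartile scaling (-0.044).

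P4ha1 and P4ha2 encode the alternative catalytic subunits of the collagen prolyl 4-hydroxylase, which stabilises the collagen triple helix. P4ha1 (chromosome 10, 59323296 to 59373304) had 75.5, 58.6, 163 and 128 CPM in the wild-type and 173, 88.7, 65.2 and 89.7 CPM in the Neat1 null libraries 1 to 4. P4ha2 (chromosome 11, 54100095 to 54131665) had 25.3, 25.0, 53.8 and 41.1 CPM in the former and 28.6, 28.5, 48.9 and 45.5 CPM in the latter. In wild-type cells both genes were higher in libraries 3 and 4 than in 1 and 2, whereas among Neat1 null libraries P4ha1 was highest in library 1 and P4ha2 in library 3. The log2 fold changes were -0.03 (SE 0.41, 95% interval -0.91 to 0.85) for P4ha1 and 0.06 (SE 0.36, 95% interval -0.71 to 0.83) for P4ha2. The sign of the first turns with RLE scaling (0.026) and that of the second with upper-quartile scaling (-0.16). With library sex as a covariate, so on Neat1 null library 3 alone, they were -0.71 and 0.43.

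Ankrd37, a small ankyrin-repeat protein and HIF target (chromosome 8, 45996902 to 46005707), was the only member with a 95% interval that left out 0. It had 1.99, 1.08, 1.28 and 3.24 CPM in wild-type libraries 1 to 4 and 7.99, 3.75, 4.27 and 3.14 CPM in Neat1 null libraries, from 49 to 133 reads per library. The groups overlapped by 1 library, as Neat1 null library 4 lay just below wild-type library 4. The log2 fold change was 1.33 (SE 0.53, 95% interval 0.19 to 2.46), which did not pass after adjustment (adjusted p = 0.0898, edgeR) and did with DESeq2 (1.39, adjusted p = 0.0283). It was 0.57 after the correction for gene length and GC content (adjusted p = 0.424) and 0.85 without Neat1 null libraries 1 and 3 (adjusted p = 0.365). The gene Lrp2bp covers 22.7% of its exon bases on the other strand and went from 0.447 ± 0.340 to 0.170 ± 0.130 CPM (n = 4 each), too low to be tested. Ufsp2, which covers 3.70%, had a log2 fold change of -0.26 (SE 0.36).

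**Figure D2:**
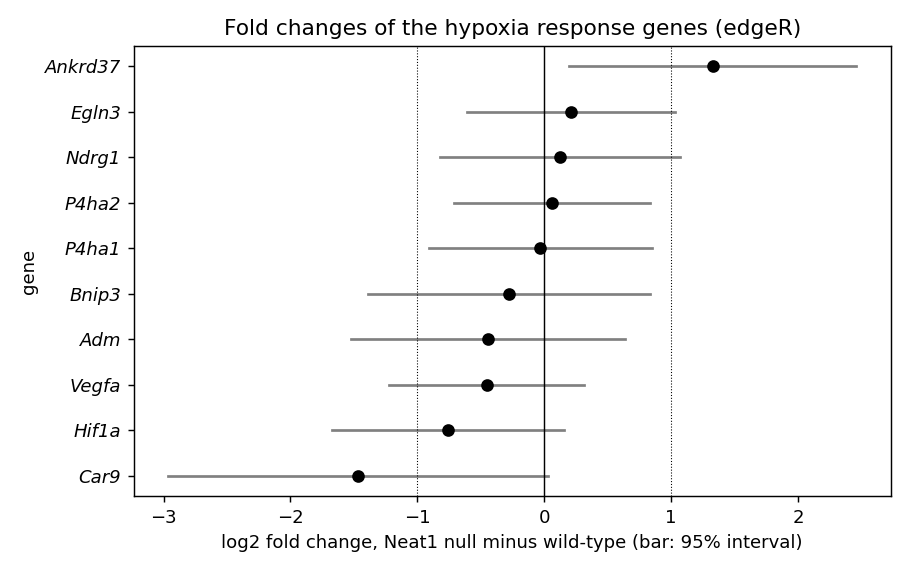
Log2 fold change of each of the 10 genes, Neat1 null minus wild-type, with its 95% confidence interval from edgeR; dotted lines mark a 2-fold change. The interval leaves out 0 for Ankrd37 alone (0.19 to 2.46), and it stays between the dotted lines for P4ha1 and P4ha2.

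Per kilobase of exon (RPKM computed from the scaled counts), Hif1a led in wild-type cells with 29.8 ± 9.51, followed by P4ha1 with 25.8 ± 11.7, Vegfa with 20.2 ± 3.99 and Ndrg1 with 19.3 ± 7.78 (mean ± SD, n = 4). These 4 neighbours overlap within their spread. Bnip3 had 13.4 ± 8.89, Egln3 6.15 ± 1.77 and P4ha2 5.82 ± 2.22, the last 2 indistinguishable. Adm had 1.98 ± 0.720, Ankrd37 1.23 ± 0.633 and Car9 1.22 ± 0.740, again within each other's spread. In Neat1 null cells P4ha1 led with 25.3 ± 11.5, Ndrg1 had 21.0 ± 11.8, Hif1a 17.6 ± 9.54 and Vegfa 14.7 ± 5.94. The other RPKM levels there were 11.1 ± 7.36 for Bnip3, 7.11 ± 2.98 for Egln3, 6.07 ± 1.74 for P4ha2, 3.11 ± 1.42 for Ankrd37, 1.47 ± 0.569 for Adm and 0.431 ± 0.295 for Car9. Car9 thus had the lowest mean in both groups, though in wild-type cells by less than its spread, and the 4 most abundant members were the same in both.

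The 10 genes did not vary as a block. Wild-type library 4 held the highest value of 3 genes, wild-type library 3 and Neat1 null library 1 of 2 each, and wild-type library 1 and Neat1 null libraries 3 and 4 of 1 each. The lowest values lay in wild-type library 2 for 3 genes, Neat1 null library 1 for 3, Neat1 null library 3 for 2, and wild-type library 1 and Neat1 null library 4 for 1 each. Neat1 null library 1 thus held both the lowest Car9, Bnip3 and Ndrg1 and the highest Ankrd37 and P4ha1. In wild-type library 4, 9 of 10 genes were above their own mean over the 8 libraries, against 3 of 10 in wild-type libraries 1 and 2 and in Neat1 null library 1. The same share over all genes was not counted, so these counts may not be particular to the 10. The SD of log2(CPM + 1) within wild-type had a median of 0.55 over the 10 genes against 0.37 over all genes tested, and within Neat1 null of 0.57 against 0.58.

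**Figure D3:**
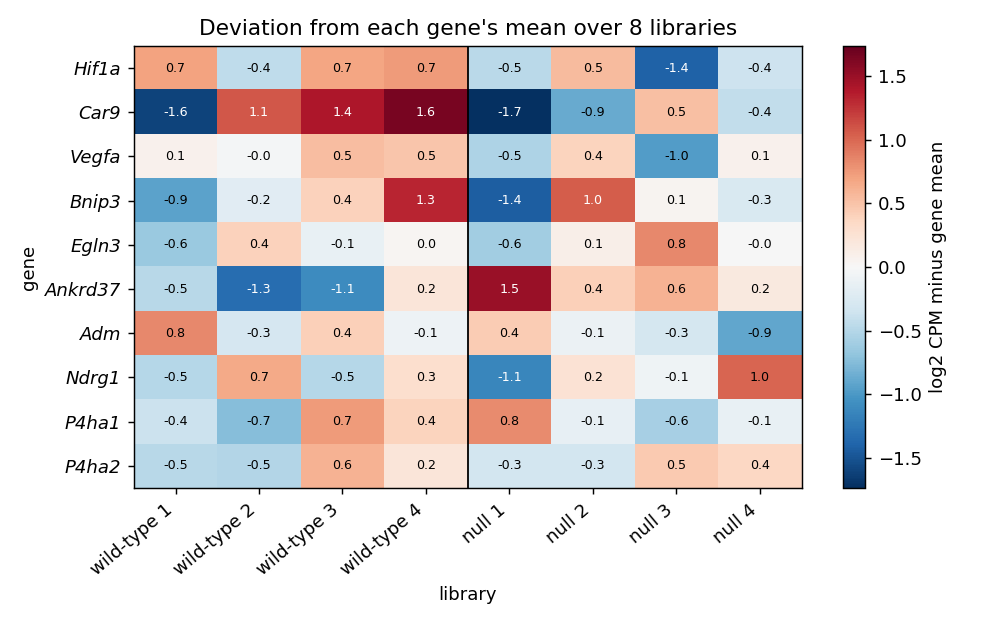
Log2 CPM of each gene (rows) in each library (columns; the line parts wild-type from Neat1 null) minus that gene's mean over the 8 libraries, red above and blue below. No library is above or below the mean for all 10 genes; Car9 has the widest range.

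For each gene, the gene outside the 10 with the most similar course over the 8 libraries was found by the root mean square difference of log2 CPM centred on its mean, among 11788 genes whose log2 CPM averaged 1 or more. The closest match was that of Vegfa with Ugdh, an enzyme of glycosaminoglycan precursor synthesis (difference 0.09 against a median of 0.77 over all candidates). Egln3 was closest to Nek8 (0.12 against 0.80) and Hif1a to 4933411K20Rik (0.13 against 0.94). The least close were Bnip3 with Reep1 (0.41) and Ankrd37 with 2210016F16Rik (0.31). P4ha1 was nearest to the cell cycle inhibitor gene Cdkn2b (0.23), P4ha2 to Shroom1 (0.21), Ndrg1 to Pvr (0.27), Car9 to Ptplad2 (0.25) and Adm to Zfp606 (0.26). These matches are over 8 libraries that share their scaling and describe these libraries only.

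Upstream of the targets, 13 other genes for HIF subunits, oxygen sensors and cofactors were tested (median log2 fold change -0.19). Of these 2 rose and 1 fell where Neat1 was lost, against 9.97% and 7.72% of all genes. Egln2, another HIF prolyl hydroxylase, rose from 47.4 ± 7.89 to 159 ± 94.6 CPM (n = 4 each; 1.74 on the log2 scale, SE 0.43, adjusted p = 0.0205, edgeR). Vhl, which targets hydroxylated HIF for degradation, rose from 30.5 ± 9.99 to 63.6 ± 17.5 CPM (1.06, SE 0.35, adjusted p = 0.0482). Hif3a, a HIF alpha paralog, fell from 3.67 ± 3.10 to 0.386 ± 0.0785 CPM (-3.25, SE 0.76, adjusted p = 0.0189). It was low and uneven, at 0.504 to 6.72 CPM in wild-type and 0.314 to 0.459 CPM in Neat1 null libraries. Epas1, the HIF-2 alpha subunit, had 3.53, 2.28, 10.8 and 9.15 CPM in the wild-type and 1.71, 4.17, 1.69 and 2.48 CPM in the Neat1 null libraries 1 to 4, with overlapping groups (-1.35, SE 0.57, adjusted p = 0.104). Arnt and Egln1, the partner of the alpha subunits and the main oxygen sensor, had log2 fold changes of -0.52 (SE 0.34) and 0.37 (SE 0.33) and were not called.

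The calls in the hypoxia pathway lists depended on single libraries: 22 genes over all 5 lists passed with all 8 libraries, 13 higher and 9 lower (10 and 11 with upper-quartile scaling; Car12 is in 2 lists). None passed when wild-type library 3 or 4, Neat1 null library 3, or Neat1 null libraries 1 and 3 together were left out. Over all genes those fits called 18, 11, 13 and 7. The fold changes of the 16 genes named from the lists moved less than the calls when 1 of these libraries was left out: on the log2 scale they kept at least 84.7%, 84% and 73.9% of their size without wild-type library 3, wild-type library 4 and Neat1 null library 3. With both libraries 1 and 3 of the Neat1 null group left out the smallest share was 41.2%, for Egln2. Without Neat1 null libraries 1 and 3, Egln2, Vhl and Hif3a had log2 fold changes of 0.72, 0.68 and -3.54 (adjusted p = 0.156, 0.210 and 0.151, edgeR). After the length and GC correction Egln2 had 1.15 (adjusted p = 0.0540) and Vhl 0.85 (0.0621). The call of Vhl also ended without wild-type library 1, Neat1 null library 1 or Neat1 null library 4 (0.0707, 0.0735 and 0.0566), with the replicate block (0.0713), with upper-quartile scaling (0.0762) and with no filter (0.0570), at log2 fold changes of 1.06, 1.00, 1.16, 1.07, 0.87 and 1.06. That of Hif3a ended with library sex as a covariate (0.138), at -2.99.

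Among 31 tested HIF targets outside glycolysis and outside the 10 genes, 5 rose and 3 fell (median 0.26 on the log2 scale). Higd1a, a mitochondrial protein induced by hypoxia, rose from 22.9 ± 7.68 to 122 ± 102 CPM (2.41, SE 0.51, adjusted p = 0.0180, edgeR), and had 1.28 without Neat1 null libraries 1 and 3 (adjusted p = 0.144). Mif, a cytokine gene, rose from 254 ± 102 to 1106 ± 618 CPM (2.12, SE 0.48), but had 0.84 after the length and GC correction (adjusted p = 0.123) and 1.33 without Neat1 null libraries 1 and 3 (adjusted p = 0.144). Angptl4, a lipoprotein lipase inhibitor, rose from 20.2 ± 11.3 to 66.6 ± 36.9 CPM (1.72, SE 0.47), a call also lost without wild-type library 2 (adjusted p = 0.0537). Its groups overlapped, with a wild-type maximum of 37.1 and a Neat1 null minimum of 33.2 CPM. The hydroxylase gene Jmjd6 rose from 56.2 ± 17.9 to 142 ± 43.6 CPM (1.33, SE 0.37), also lost without wild-type library 2 (0.0506), with 0.88 without Neat1 null libraries 1 and 3 (0.155). The 23 glycolytic HIF targets had a median of 0.79, with 5 called higher, 1 lower and 5 of 23 below 0. Those called with the smallest p were Ldha, Tpi1 and Pfkl, with log2 fold changes of 2.33, 2.28 and 1.74, and the neuronal enolase Eno2 with -1.73. The groups overlapped for Eno2, whose lowest value of all was 12.0 CPM in wild-type library 1. Without Neat1 null libraries 1 and 3, Ldha, Tpi1 and Pfkl had 1.98, 1.40 and 1.29 (adjusted p = 0.110, 0.144 and 0.144, edgeR). With library sex as a covariate, so on Neat1 null library 3 alone, these genes had 3.10, 3.30 and 2.56. Beside these counts, the 10 hypoxia genes stood at 0 higher and 0 lower, where 17.7% of all genes were called. The difference between the lists was not tested.

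**Figure D4:**
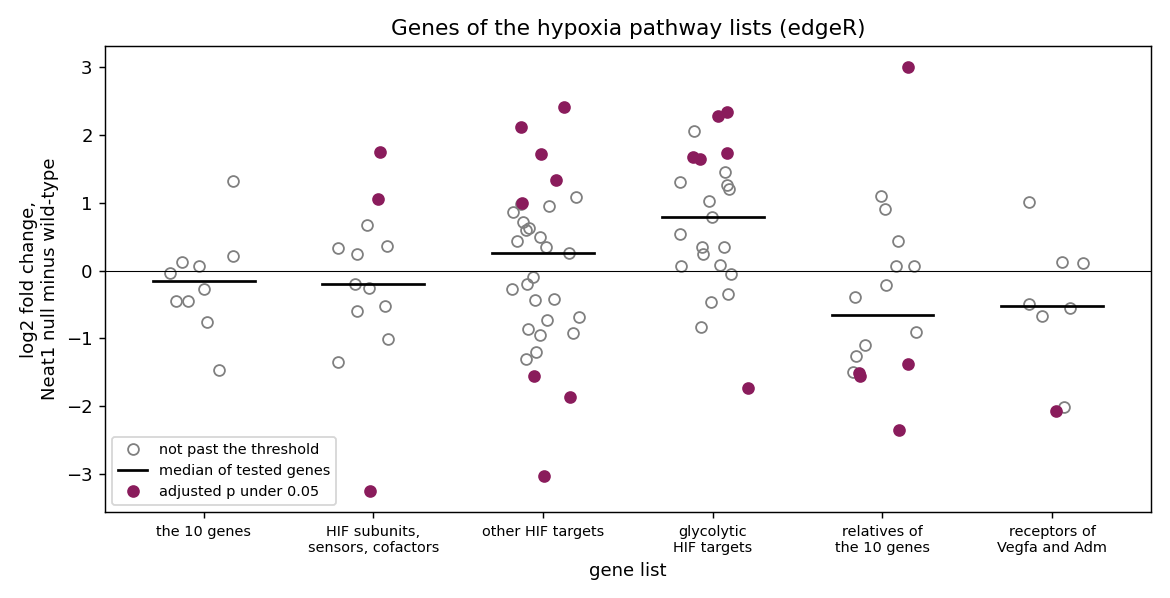
Log2 fold change (Neat1 null minus wild-type, edgeR) of each tested gene in the 10 hypoxia genes and in 5 pathway lists; filled points passed an adjusted p of 0.05 and bars are medians. The 10 genes hold no filled point, and the glycolytic targets have the highest median (0.79).

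Relatives of the 10 genes gave 1 rise and 4 falls among 16 tested (median -0.65 on the log2 scale). For these and the receptor genes below, the shares over all genes were 9.97% higher and 7.72% lower. Adm2, a peptide related to adrenomedullin, rose from 3.56 ± 1.93 to 28.6 ± 25.5 CPM (3.0, SE 0.66, adjusted p = 0.0185, edgeR), and had 1.3 without Neat1 null libraries 1 and 3 (adjusted p = 0.200) and 1.76 after the length and GC correction (adjusted p = 0.0496). P4ha3, a further prolyl hydroxylase subunit, fell from 8.32 ± 5.09 to 1.60 ± 0.812 CPM (-2.36, SE 0.59). Its groups overlapped, with a wild-type minimum of 2.36 and a Neat1 null maximum of 2.49 CPM. Vegfc, the lymphatic growth factor, fell from 10.7 ± 3.22 to 3.74 ± 1.07 CPM (-1.51, SE 0.42). Car12, another membrane carbonic anhydrase, fell from 14.4 ± 4.75 to 4.88 ± 2.58 CPM (-1.55, SE 0.46), a call also lost without Neat1 null library 1 (0.0582) or 2 (0.0546) and after the length and GC correction (0.0696). Of 8 tested receptor genes for Vegfa and Adm 1 fell and 0 rose: Calcrl, the adrenomedullin receptor, went from 11.0 ± 5.05 to 2.57 ± 1.88 CPM (-2.07, SE 0.58, adjusted p = 0.0278). With library sex as a covariate, so on Neat1 null library 3 alone, P4ha3, Vegfc, Car12, Calcrl and Eno2 had log2 fold changes of -3.02, -1.85, -1.60, -2.61 and -1.84. That fit cannot tell whether these falls hold apart from sex.

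Ratios within a library do not depend on its scaling beyond the pseudocount of 1 CPM, and 4 pairs of genes of like function were compared with an exact 2-sided permutation test over 70 assignments of libraries, whose smallest p is 0.0286. The log2 ratio of P4ha1 to P4ha2 was 1.54, 1.19, 1.58 and 1.62 in wild-type libraries 1 to 4 and 2.56, 1.60, 0.408 and 0.964 in Neat1 null libraries. The Neat1 null libraries thus lay on both sides of the wild-type range, with an SD of 0.922 against 0.195 and a difference in means of -0.10 (exact permutation p = 0.857, adjusted 0.857 over 4 pairs). The ratio of Bnip3 to its mitophagy relative Bnip3l was -1.98, -1.11, -1.13 and -0.348 in wild-type libraries and -2.40, -1.17, -1.65 and -2.11 in Neat1 null libraries. Its difference of -0.69 was the widest of the 4 and not past the threshold (exact permutation p = 0.143, adjusted 0.571). After adjustment over 4 pairs, a single pair at the smallest p of 0.0286 would not pass the threshold by itself. The adjusted values therefore cannot decide whether a single ratio differed. The ratio of Hif1a to Epas1 was 5.49, 4.82, 4.10 and 4.36 in the wild-type and 5.06, 5.14, 4.16 and 4.82 in the Neat1 null libraries, all 4 inside the wild-type range (difference 0.10, exact permutation p = 0.771). Egln3 to Egln1 had -2.44, -0.95, -1.56 and -1.28 against -1.70, -1.77, -1.34 and -2.09, again inside it (difference -0.17, exact permutation p = 0.629). Both were adjusted to 0.857.

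**Figure D5:**
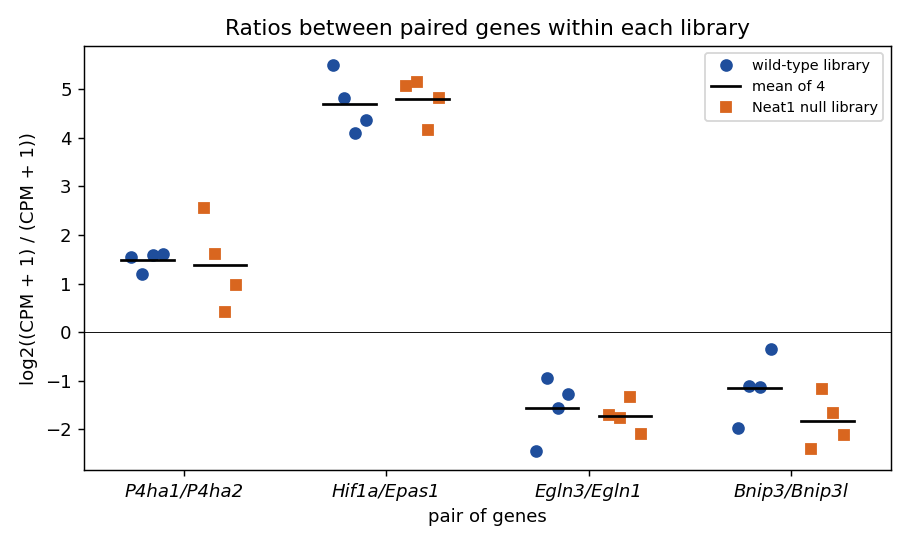
Log2 ratio of (CPM + 1) between the genes of 4 pairs in each wild-type (circles) and Neat1 null library (squares), with group means as bars. The Neat1 null libraries spread from 0.408 to 2.56 for P4ha1/P4ha2 where the wild-type libraries lie between 1.19 and 1.62.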

How the data were processed

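Per the labels, libraries were made from total RNA with a stranded TruSeq kit. The authors deposited a table of unnormalized read counts by gene symbol for each library. CASAVA 1.8, STAR, DESeq2 and mm10 are named in the submitters' processing notes. The counter, its strand setting and its annotation are not given in the sources used here. Reads outside genes (5.48% to 15.7%) and ambiguous reads (1.09% to 1.76%) stayed out of library sizes and tests. Genes kept by filterByExpr (minimum count 10) were scaled with TMM and tested with edgeR 4.0.16 (R 4.3.3; robust quasi-likelihood F test, genotype as the only term, 2-sided, Benjamini-Hochberg over 13316 genes). DESeq2 1.42.0 was an alternative. A standard error is the log2 fold change divided by the square root of F, and intervals use the fit's degrees of freedom. The length and GC correction added spline offsets (5 degrees of freedom) from GENCODE M21 (GRCm38, that is mm10), which matched 98.4% of symbols; it also gave coordinates, 1-based, and exon lengths. Named genes were the 10 members, Neat1, up to 4 called genes with the smallest p from each of 5 lists, genes of 4 pairs and 1 nearest gene per member. The members, lists and alternatives were chosen with earlier results of these data known. On simulated counts (13243 genes tested, 50 or 49 changed at each fold), 5.11% of 137 calls were false. Any 2 libraries of one genotype differed beyond counting noise (smallest chi-square divided by its degrees of freedom 64.9), so none holds the counts of another; whether some are repeat preparations of one culture cannot be told from this.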

Additional observations from a re-analysis of the deposited data

Results flagged for a closer look

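Among the 20 sets of 4 libraries examined (10 genes in 2 groups), 1 held a library far from its neighbours, about as many as the 1 in 20 that chance gives. Hif1a had 91.51 CPM in wild-type library 2, while the nearest other wild-type library had 201 CPM; the gap made up 0.943 of the group's range, above the critical value of 0.829. Leaving it out gave Hif1a a log2 fold change of -0.97 (adjusted p = 0.152, edgeR).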

How the results depend on the processing

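Of the 10 genes, 0 were called under each alternative except DESeq2, which called 1, Ankrd37 (adjusted p = 0.0283), and the fits with 1 library left out, which called 0 to 1 (Car9 without wild-type library 1). Over all genes, leaving out 1 library gave 11 to 2965 calls (18, 11 and 13 without wild-type libraries 3 and 4 and Neat1 null library 3), the length and GC correction 1460, an adjusted p under 0.01 gave 7 and leaving out Neat1 null libraries 1 and 3 gave 7. The other hypoxia lists had 0 to 24 calls with 1 library left out, and 0 with an adjusted p under 0.01 or without Neat1 null libraries 1 and 3. With upper-quartile factors the split of all calls was 1036 higher and 1428 lower, against 1328 and 1028, where the median over all genes went from -0.06 to -0.24. With the replicate block it was 1093 and 1152, and with the length and GC correction 708 and 752. With 1 library left out, log2 fold changes ranged from -0.39 to 0.25 for P4ha1, -0.075 to 0.31 for P4ha2, -0.29 to 0.39 for Ndrg1, -0.78 to 0.25 for Bnip3 and -0.086 to 0.40 for Egln3, all across 0. Those of Hif1a, Vegfa, Car9, Adm and Ankrd37 kept their sign under every alternative run. P4ha1 turned to 0.026 with RLE factors, 0.026 with DESeq2 and 0.13 with the length and GC correction. Egln3 turned to -0.18 with that correction. Ndrg1 had -0.044 with upper-quartile factors and -0.16 with the sex covariate, P4ha2 had -0.16 with upper-quartile factors, and Bnip3 had 0.14 without Neat1 null libraries 1 and 3. The Hif1a to Epas1 ratio difference was -0.064 without TMM factors. With 1 library left out the pair differences ranged from -0.10 to 0.37 for Hif1a to Epas1, -0.46 to 0.034 for Egln3 to Egln1 and -0.49 to 0.22 for P4ha1 to P4ha2. The causes were not tested. The labels' replicate numbers did not pair the libraries: same-numbered libraries had correlations of deviations of 0.317, -0.258, -0.0140 and 0.107, and only number 1 correlated best with itself. With the replicate block 0 of the 10 genes and 2245 genes in all were called, and the exact sign-flip test of the pair ratios gave adjusted p-values of 0.5 to 0.875, where that design cannot reach 0.05.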
